A study of Homo sapiens with 4 samples.

Results

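The genes described here are 28 genes of sterol and fatty acid synthesis, chosen by name with earlier results of these data known. They are taken in pathway order: 7 of the mevalonate pathway, 11 of the sterol branch, 6 regulators and sterol carriers, and 4 of fatty acid synthesis. They were read out in LP-1, an established human multiple myeloma cell line, by RNA sequencing of 4 libraries. In 2 libraries the cells had received a lentiviral guide RNA against HRP2, the chromatin reader encoded by HDGFL2, and in 2 a non-target control guide; all cells grew in the same serum-containing medium. The labels say neither whether the cells were clones or pools, nor how long after transduction they were harvested, nor whether replicate libraries stem from separate cultures. The authors' deposited gene table gives HDGFL2 a log2 fold change of -1.37, or 0.388 times the control level (Q = 2.99e-13).

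Of the 28 genes, 9 have a row in the authors' gene table of 684 genes and 7 have a row in their transcript table of 1040 transcripts. Together 13 genes have a value, 3 of them in both tables, and 15 have none. Each row gives a log2 fold change, HRP2 knockdown against control, with a Q value, the authors' adjusted p-value, and the largest Q is 0.0495 in the gene table and 0.0497 in the transcript table. Rows with a larger Q were not used here, so a gene without a row has no measured difference and is not shown to be unchanged. Values per library were not used here, and no fold change below has an SD or a known sequencing depth. The labelled cell type could not be checked against marker levels for the same reason. Of 9 plasma cell marker genes 3 (33.3%) have rows in the authors' deposited gene table, where 2.81% of all listed mRNA genes have one and 1.32% are lower. All 3 were lower (SDC1 at -0.45, TNFRSF17 at -0.48 and IRF4 at -0.63). The marker lists, too, were chosen with earlier results of these data known. In the authors' deposited transcript table IRF4 has 1 transcript at 1.93 (Q = 0.000426) and another at -1.04 (Q = 0.0108). Of 31 markers of other cell types none has a gene-level row, and PECAM1, an endothelial marker, has a transcript at 8.64 (Q = 0.0261). The part of these marker differences in the results below was not tested. In bulk libraries a change in the make-up of the culture and a change in RNA per cell cannot be told apart.

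Cholesterol is built from acetyl-CoA, first through mevalonate to farnesyl diphosphate, then through squalene and lanosterol in the membrane of the endoplasmic reticulum. The genes of these enzymes are switched on together by SREBP transcription factors, of which SREBP-2, encoded by SREBF2, mainly drives sterol synthesis and SREBP-1, encoded by SREBF1, mainly fatty acid synthesis. When membrane sterol is ample, INSIG proteins hold SCAP and its SREBP cargo in the endoplasmic reticulum, and the genes are quiet. SREBPs bind weakly alone and act beside the factors NF-Y and Sp1. Plasma cells, from which myeloma arises, carry an extensive endoplasmic reticulum for antibody secretion.

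Enzymes of sterol synthesis were higher after HRP2 knockdown wherever the authors' gene table held them. Of the 18 enzymes of the mevalonate pathway and the sterol branch 8 have a row, all 8 higher, with log2 fold changes between 0.59 and 1.08 and a median of 0.76. SREBF1, the only other member with a row, was lower at -0.73. None of the 4 fatty acid synthesis genes has a gene-level row. Over all 28 members, 9 (32.1%) are in the table, against 682 (2.81%) of the 24237 mRNA genes that the authors list, or 1.49% for higher and 1.32% for lower genes. That list includes genes the cells may not express, whose number is not known, so the share among expressed genes is larger than 2.81%. The members were chosen with earlier results of these data known, so their share in the gene table is no independent support. Of all 684 genes in that table, 52.8% are higher. The median over all higher genes is 0.66, so the size of the members' change was ordinary for this table.

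**Figure D1:**
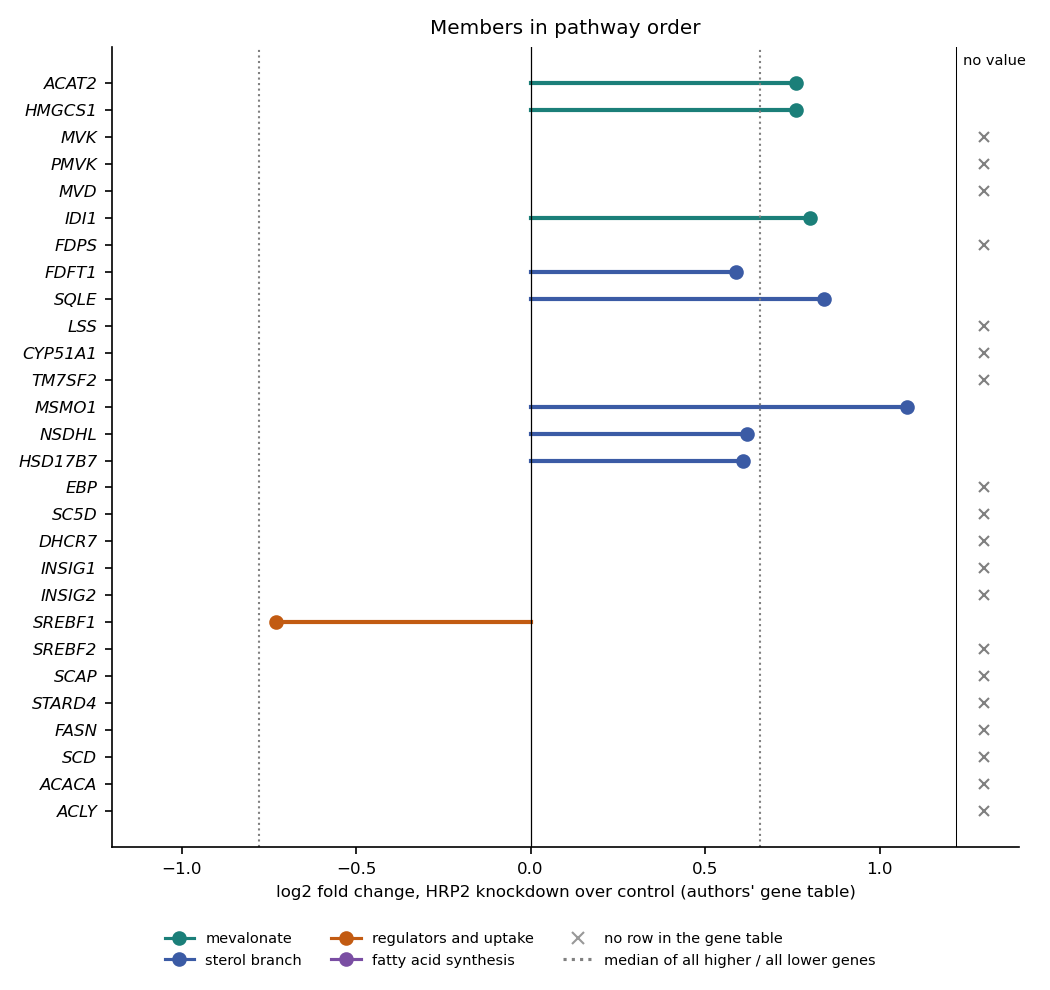
The authors' log2 fold change (x axis) of each of the 28 genes (y axis, pathway order, colour by group) in HRP2 knockdown over control; crosses at the right mark genes with no row and hence no value, and dotted lines mark the medians of all higher (0.66) and all lower (-0.78) genes of the table. The 8 enzyme genes with a value lie to the right of zero and SREBF1 lies to the left.

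In the mevalonate pathway 3 of 7 genes have a row in the authors' deposited gene table. ACAT2 encodes the cytosolic thiolase that joins acetyl-CoA units at the entry to the pathway, and it had a log2 fold change of 0.76, or 1.7 times the control level (Q = 0.0227). HMGCS1, the HMG-CoA synthase of the next step, was also at 0.76 (Q = 0.0184). IDI1, which interconverts the isoprene units isopentenyl and dimethylallyl diphosphate, was at 0.80, or 1.74 times control (Q = 0.00802). These 3 values differ by 0.04 at most on the log2 scale. They rank 109, 111 and 94 by size among the 361 higher genes. MVK, PMVK and MVD, the kinases and the decarboxylase between HMGCS1 and IDI1, and FDPS, the farnesyl diphosphate synthase, have no gene-level row.

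The sterol branch has rows for 5 of 11 genes in the authors' deposited gene table. FDFT1, the squalene synthase that commits farnesyl diphosphate to sterols, had a log2 fold change of 0.59, or 1.5 times control (Q = 0.0231). SQLE, squalene epoxidase, an oxygen-requiring and rate-limiting step, was at 0.84, or 1.79 times control, with the lowest Q of the higher members (0.000235, rank 59 of 684). MSMO1, the C4-methyl sterol oxidase, had the largest change of the members at 1.08, or 2.12 times control (Q = 0.0011), and it ranks 48 among the 361 higher genes. NSDHL and HSD17B7, the dehydrogenase and the ketoreductase that act with MSMO1 to remove the C4 methyl groups, were at 0.62 (Q = 0.0295) and 0.61 (Q = 0.0366). All 3 enzymes of C4 demethylation were thus higher, a grouping made after the values were seen. HSD17B7 shares 69.5% of its 31-base sequence words with transcripts of another gene, mostly the copy HSD17B7P2, so its reads may have been split with that copy. The other called members share at most 9.2%. LSS, CYP51A1, TM7SF2, EBP, SC5D and DHCR7, which cyclise epoxysqualene, process the C14 methyl group and finish the ring and its double bonds, have no row.

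Of the 9 called members, IDI1, SQLE, MSMO1 and SREBF1 have a Q under 0.01 (4 of 9, 44.4%), a share near the 37.3% of all genes in the table. MSMO1 alone among them passes an absolute log2 fold change of 1. The 9 genes lie on 8 chromosomes, with FDFT1 and SQLE on the same one, so the rows are not a single block of neighbours. ACAT2 overlaps TCP1, a chaperonin subunit gene, at their ends in the RefSeq annotation, and TCP1 was itself higher at 0.57 (Q = 0.0246) in the authors' deposited table. The sources used here do not say whether reads were counted by strand, so reads from the stretch that both genes cover may not be told apart. No other gene overlapping a called member has a row.

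**Figure D2:**
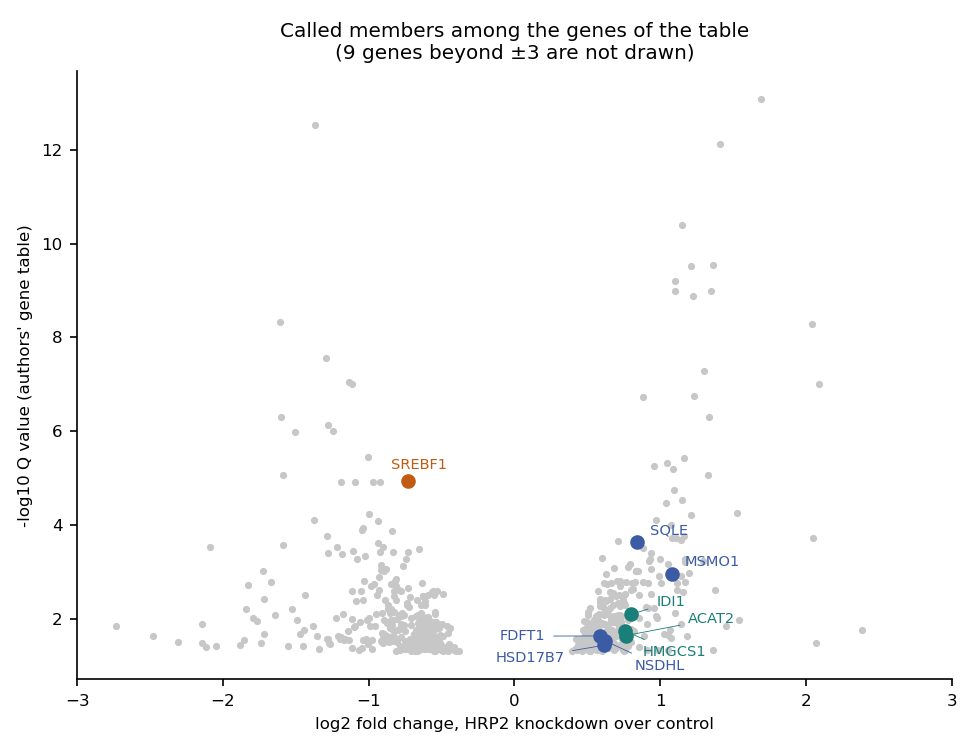
Each point is a gene of the authors' table, by log2 fold change of HRP2 knockdown over control (x axis) and -log10 Q value (y axis); coloured points are the 9 called members, and 9 genes beyond ±3 are not drawn. SREBF1 stands among the lower genes with a small Q of 1.17e-05, and most of the enzyme genes sit low on the right, near the authors' threshold.

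Among the regulators only SREBF1 has a gene-level row. It was lower at -0.73, or 0.603 times control, with a Q of 1.17e-05 in the authors' deposited table, the smallest Q of any member (rank 33 of 684). By size it ranks 180 among the 323 lower genes. SREBF2, SCAP, INSIG1, INSIG2 and STARD4, a cytosolic sterol carrier, have no gene-level row. INSIG1 is itself a classic SREBP target, and its absence leaves it without a value in either direction. ACLY, ACACA, FASN and SCD, which make citrate-derived acetyl-CoA, malonyl-CoA, palmitate and oleate in that order and are textbook SREBP-1 targets, likewise have no gene-level row.

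The members differ in base composition, and so do the higher and the lower genes of the table. The median transcript GC content is 46.7% for all higher genes and 57.5% for all lower genes. The 8 higher members run from 38.1% for MSMO1 to 51.7% for NSDHL, with a median of 46.1%, and SREBF1 is at 63.7%. Of the 342 other genes of the table whose GC content falls in the range of the 8 higher members, 73.7% are higher. Of the 105 other genes within 3 percentage points of SREBF1, 9.52% are higher. Thus each called member went in the direction most genes of its base composition went. The 19 members without a row have a median of 56.2%.

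Within the 18 sterol enzymes the called genes all have a low GC content, but not every enzyme with a low GC content was called. At or below 51.7%, the value of NSDHL and by construction the upper end of the called enzymes, there are 10 enzymes, of which 8 have a row; the other 2 are CYP51A1 (41.4%) and SC5D (38.2%). The 8 enzymes above that value, from FDPS at 54.4% to MVD at 65.2%, have none. Over all members the split is less sharp. Of 15 members at or below 51.7%, 8 (53.3%) have a gene-level row. INSIG1, INSIG2, STARD4, SCD and ACACA, from 37.2% to 49%, are among those without one. Among all listed mRNA genes with a GC value, 2.62% of 10545 at or below 51.7% are higher in the table and 0.924% of 8762 above it. The part of base composition in the members' result was not tested, because uncalled genes have no value.

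**Figure D3:**
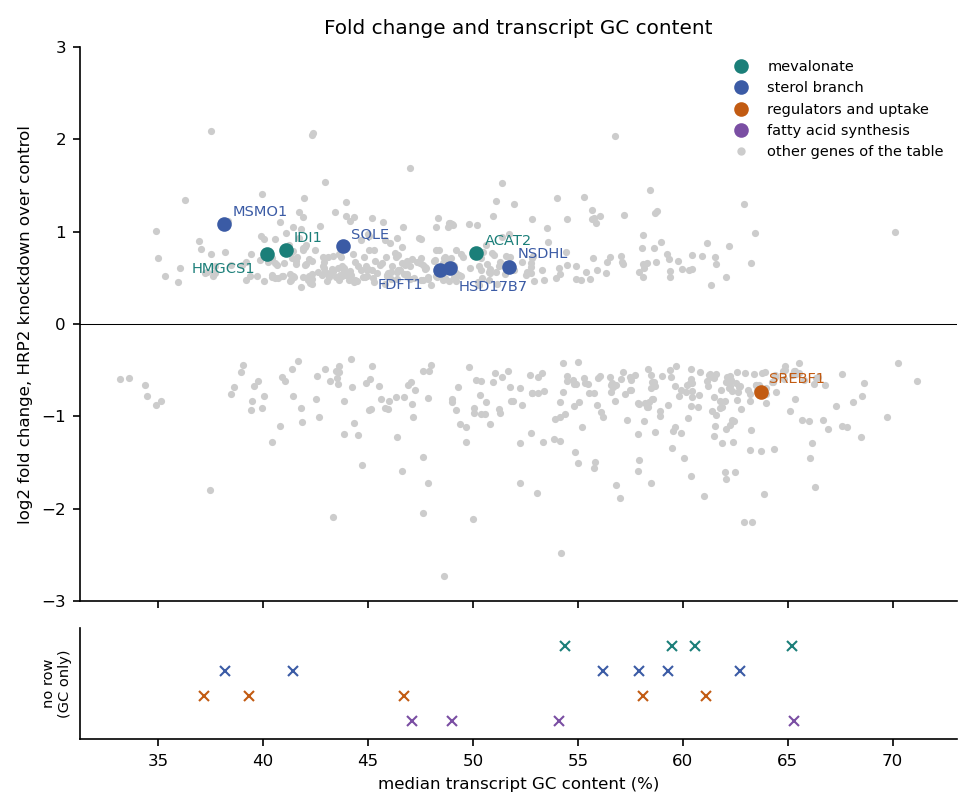
Upper panel: the authors' log2 fold change of HRP2 knockdown over control (y axis) against median transcript GC content in percent (x axis) for genes of the table within ±3, with called members in colour. Lower panel: GC content alone of the 19 members without a row, by group; most of the sterol enzymes there (green and blue) lie to the right of NSDHL at 51.7%.

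The promoters of the called members were set side by side because the enzymes moved together while SREBF1 moved the other way. RefSeq promoter windows, from 250 bases before a start site to 50 after it, were at hand for 24 of the 28 genes; ACAT2, FDFT1, SQLE and FASN had none. The 200 bases before the start site follow, 5′ to 3′ on the gene's strand in GRCh38.p14, for the higher members with a single window and for both SREBP genes. Capitals mark the NF-Y box CCAAT on either strand (ATTGG on the reverse) and, in SREBF2, a sterol regulatory element of the form TCACNCCAC. The deposited values refer to hg19 and are placed at no coordinate here.

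MSMO1 promoter, chr4:165327469-165327668, strand plus: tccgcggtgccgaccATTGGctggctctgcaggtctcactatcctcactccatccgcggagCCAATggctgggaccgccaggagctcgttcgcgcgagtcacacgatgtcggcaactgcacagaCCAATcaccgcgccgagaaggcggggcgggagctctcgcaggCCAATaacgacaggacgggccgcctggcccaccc
NSDHL promoter, chrX:152830863-152831062, strand plus: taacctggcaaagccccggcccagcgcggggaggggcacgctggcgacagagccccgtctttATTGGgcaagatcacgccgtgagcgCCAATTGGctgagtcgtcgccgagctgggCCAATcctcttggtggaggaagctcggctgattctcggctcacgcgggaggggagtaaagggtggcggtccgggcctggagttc
HSD17B7 promoter, chr1:162790502-162790701, strand plus: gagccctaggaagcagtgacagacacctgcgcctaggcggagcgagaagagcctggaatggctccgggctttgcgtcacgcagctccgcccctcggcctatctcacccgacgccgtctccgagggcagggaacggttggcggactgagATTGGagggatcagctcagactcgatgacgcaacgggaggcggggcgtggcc
SREBF1 promoter, chr17:17836987-17837186, strand minus: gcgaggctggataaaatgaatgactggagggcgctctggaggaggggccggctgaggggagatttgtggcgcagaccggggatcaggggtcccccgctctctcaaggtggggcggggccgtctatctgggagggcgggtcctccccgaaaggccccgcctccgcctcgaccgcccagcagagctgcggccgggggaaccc
SREBF2 promoter, chr22:41832905-41833104, strand plus: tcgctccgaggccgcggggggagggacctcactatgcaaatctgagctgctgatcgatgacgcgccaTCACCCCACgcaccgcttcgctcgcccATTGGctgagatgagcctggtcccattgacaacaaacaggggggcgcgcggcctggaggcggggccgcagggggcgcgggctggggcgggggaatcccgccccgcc

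MSMO1 holds 4 NF-Y boxes in the printed stretch, and NSDHL holds 4 as well, of which 2 overlap as CCAATTGG. HSD17B7 holds 1 there, and SREBF1 none. Only 1 SREBF1 window was at hand, and SREBF1 sequence outside that window was not searched. Over whole windows, any start site of a gene counted, all 5 higher members with a window (HMGCS1, IDI1, MSMO1, NSDHL and HSD17B7) hold an NF-Y box. But so do 14 of the 18 members with a window and no gene-level row, such as MVK with 5 and MVD with 3. In all, 19 of 24 members (79.2%) hold the box, against 42.1% of 15843 protein-coding genes, 42.7% of the higher genes of the table and 49.2% of its lower genes. The box is thus common among the members whether or not they were called. With the first listed window of each gene alone, 17 of 24 members (70.8%) hold it, 4 of the 5 higher members do, and the share of protein-coding genes is 36.4%.

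The element TCACNCCAC was found in 1 of 24 members, SREBF2, at positions -133 to -125 from its start site, against 1.51% of protein-coding genes. SREBP-2 is known to act on its own gene. The shorter form CACNCCAC, which the longer contains, was found in 6 members (25%: IDI1, SC5D, INSIG1, SREBF2, SCD and ACACA), against 7.98% of protein-coding genes and 9.15% of higher genes. Of the 5 higher members with a window only IDI1 holds it. With first windows alone 4 of 24 members (16.7%) hold it, and none of the 5 higher members, against 6.02% of protein-coding genes. The Sp1 box GGGCGG was found in 23 of 24 members (95.8%), NSDHL being the exception, against 64.3% of protein-coding genes. The E-box CACGTG was found in 4 members (16.7%), none of them called, against 10.9% of protein-coding genes. Searches ran on both strands. These matches describe letters in the window and show no binding.

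**Figure D4:**
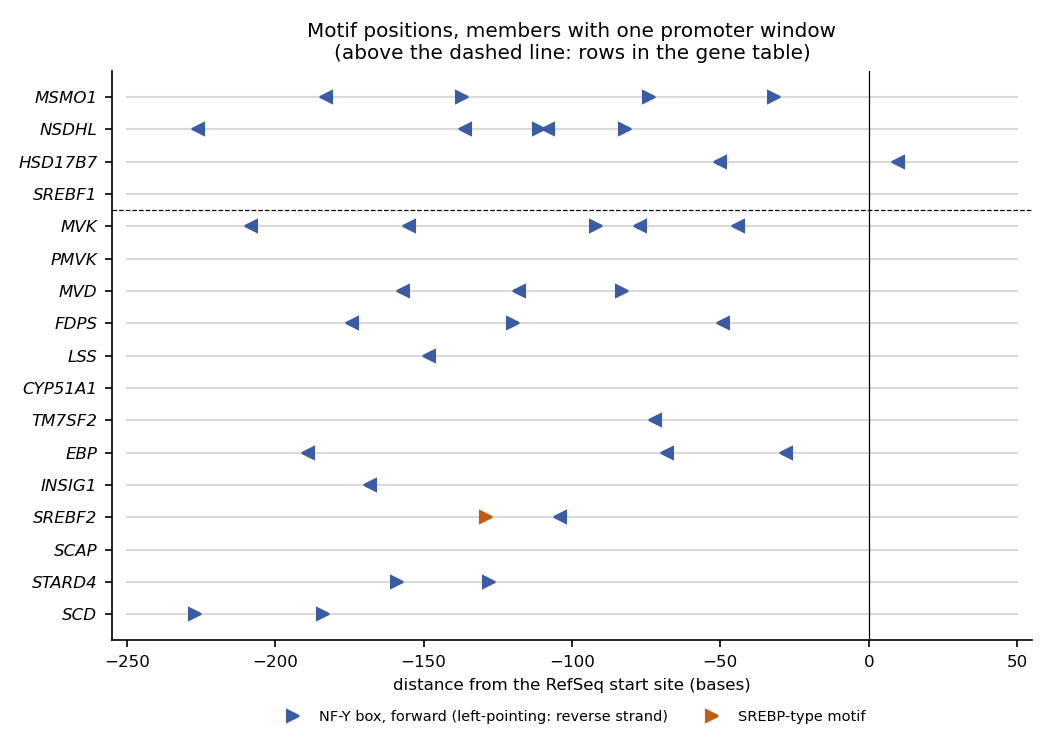
Positions of NF-Y boxes (blue) and of the SREBP-type element (orange) by distance from the RefSeq start site in bases (x axis) for the 17 members with a single promoter window (y axis); arrowheads point by strand, and rows above the dashed line have a row in the gene table. MSMO1 and NSDHL carry several boxes, SREBF1 carries none within its single window, and uncalled genes such as MVK carry several too.

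The transcript table adds 7 member transcripts, 1 for each of 7 genes, 3 higher and 4 lower. These are 25% of the 28 members, where 3.62% of all listed mRNA genes have a row in that table. Here too the share is no independent support, because the members were chosen with earlier results of these data known. Of all 1040 transcripts 51% are higher. An absolute log2 fold change of 6 or more is held by 4 of the 7 (57.1%), against 79.1% of all its transcripts. The levels behind values of that size were not used here.

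The 3 moderate values bear on named isoforms. SQLE (NM_003129.3) had a log2 fold change of 0.75 (Q = 0.0144) in the authors' deposited transcript table, beside 0.84 for the gene. SREBF1 (NM_001321096.2) was lower at -1.15 (Q = 0.0203), beside -0.73 for the gene. GENCODE 29 pairs this SREBF1 transcript with a model of 20 exons and a coding length of 3531 bases, 90 bases longer than the other RefSeq-paired model of the gene (3441 bases) and with the same start codon. FDPS, without a gene-level row, has a transcript (NM_001242824.1) higher at 0.63 (Q = 0.0345), whose model has a coding length of 1059 bases, against 1257 and 744 in the other paired models. Its direction is that of the called sterol enzymes, and 19.4% of the FDPS sequence words occur in other genes, mostly a pseudogene.

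The 4 large values went both ways. A SREBF2 transcript known only as a RefSeq prediction (XM_011530347.2) was at 11.82 (Q = 2.66e-08) in the authors' deposited transcript table, the smallest Q among the member transcripts. STARD4 (NM_001308056.1) was at -10.54 (Q = 3.58e-07), ACACA (NM_198834.2) at -9.65 (Q = 0.000134) and HMGCS1 (NM_001324219.1) at -8.74 (Q = 0.0149). For HMGCS1 the transcript and the gene went in opposite directions. Its GENCODE model is shared with 2 other RefSeq transcripts and has the same coding length, 1560 bases, as the other paired model. The STARD4 model is shared with 4 other RefSeq transcripts. The ACACA model starts upstream of the 3 other paired models and has the longest coding length, 7149 bases. Whether reads passed between near-identical transcripts during estimation was not tested, since values per library were not used here.

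**Figure D5:**
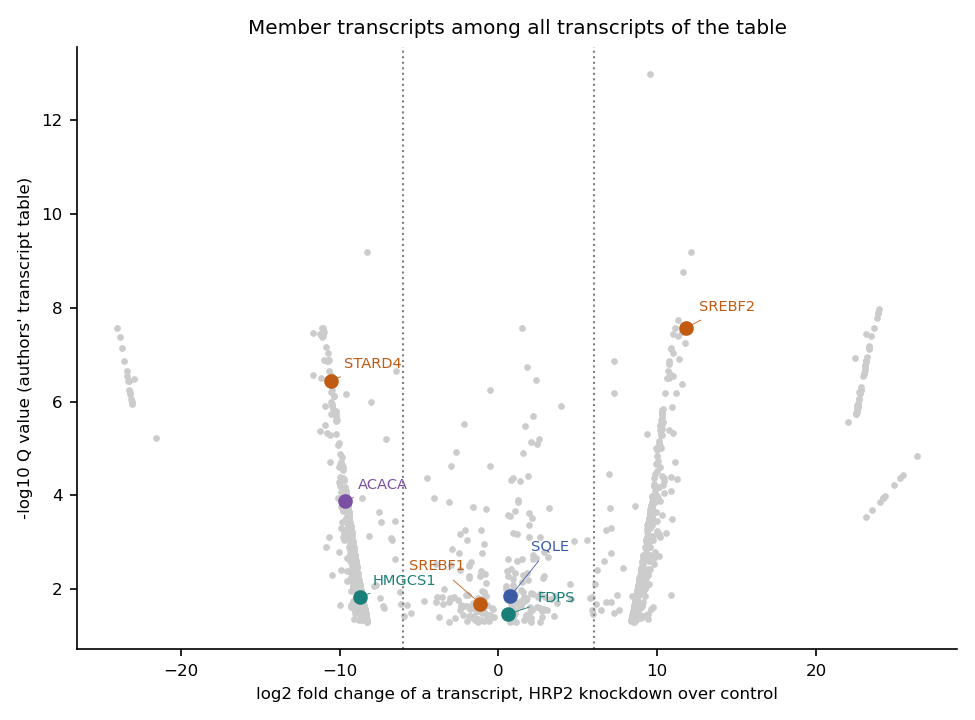
Each point is a transcript of the authors' table, by log2 fold change of HRP2 knockdown over control (x axis) and -log10 Q value (y axis); coloured points are the 7 member transcripts and dotted lines stand at ±6. SQLE, FDPS and SREBF1 lie between the lines, and the transcripts of HMGCS1, ACACA, STARD4 and SREBF2 lie outside them. Among these outer member transcripts the larger absolute changes have the smaller Q.

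Beyond the 28 genes, 141 other lipid genes in 7 lists have 10 rows in the authors' deposited gene table (7.09%), 5 higher and 5 lower. The share of all listed mRNA genes with a row is 2.81%, 1.49% higher and 1.32% lower. The 7 lists were likewise chosen with earlier results of these data known. Of 20 genes of sterol uptake, storage and efflux, SCARB1, the receptor that takes cholesterol ester from high-density lipoprotein, was higher at 0.83 (Q = 0.00165). In the isoprenoid branch, which draws on the same mevalonate, PDSS1, a subunit of the enzyme that makes the ubiquinone side chain, was at 0.91 (Q = 0.0127) and RABGGTB, a subunit of the Rab prenyltransferase, at 0.64 (Q = 0.0177), of 14 genes.

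Fatty acid and glycerolipid genes with a row went both ways in the authors' deposited gene table. Of 21 glycerolipid and phospholipid genes 3 have one (14.3%). DGAT2, which makes triacylglycerol, was higher at 1.17 (Q = 0.000529), CHKA, choline kinase, was higher at 0.55 (Q = 0.043), and PNPLA2, the triacylglycerol lipase ATGL, was lower at -0.50 (Q = 0.0132). None of 27 genes of elongation, desaturation and activation has a gene-level row. ECI1, an isomerase of fatty acid oxidation, was lower at -0.59 (Q = 0.00907), and is the single gene of 23 on its list with a row (4.35%). On the list named citrate and NADPH supply, 2 of 14 genes have a row (14.3%). Both IDH1 at -0.59 (Q = 0.0219) and ME2 at -0.40 (Q = 0.0486) were lower. Which cofactor each listed enzyme uses was not examined. SEC24D, a COPII coat subunit and the only 1 of 22 SREBP processing and sensing genes with a row, was lower at -0.80 (Q = 0.0177).

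The same lists have 8 transcripts in the authors' deposited transcript table, 3 higher and 5 lower, from 7 of the 141 genes (4.96%, where 3.62% of all listed mRNA genes have a row). ACSS2, the cytosolic acetyl-CoA synthetase, had 2 transcripts in opposite directions, at 9.68 (Q = 0.000139) and -9.42 (Q = 0.0003). MBTPS1, the protease that makes the first cut in SREBP, had a predicted transcript at -8.60 (Q = 0.0137), and LPIN1, a phosphatidate phosphatase, one at -9.48 (Q = 0.000167). AGPAT5, an acyltransferase of phosphatidate synthesis, had a predicted transcript at 9.35 (Q = 0.00207). EHHADH, the peroxisomal bifunctional enzyme of fatty acid oxidation, had one at -9.47 (Q = 0.000472), and FBXW7, the ubiquitin ligase subunit that marks SREBP for degradation, one at -8.25 (Q = 0.0483). ACADVL, a dehydrogenase of fatty acid oxidation, at 2.21 (Q = 0.00224), is the only 1 of the 8 under an absolute value of 6.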

How the data were processed

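RNA sequencing libraries of LP-1 cells, 2 of HRP2 knockdown and 2 of non-target control, were made from Trizol-extracted RNA. BWA, Bowtie2, RSEM and the build hg19 are named, without roles, per the submitters' processing notes; versions, annotation, normalization, strand setting and test: not given in the sources used here. The measurements are log2 fold changes (knockdown over control) and Q values (adjusted p-values) as deposited by the authors, per the file headers. Depth and the spread between libraries are unknown, so no test of differences was added. Columns of values per library came to 0.

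Members were matched by symbol and checked by gene ID. The members and all lists were chosen with earlier results of these data known. Named are all members with a row, genes of the other lipid lists with a gene-level row, and HDGFL2, except for 1 further lipid list of the design, which is not reported here; transcripts of other lipid genes, cell type markers and TCP1 were added with their values in view. Transcript GC content is the median over protein-coding transcripts in GENCODE 29 (676 of 684 genes matched); shared sequence is the percent of 31-base words of the longest coding transcript found in another gene. Motifs were counted in RefSeq windows (GRCh38.p14); motif and word searches were tested on planted sequences. Alternatives were a Q under 0.01, minimum fold changes, leaving out genes that share sequence, older symbols and a looser motif, and, chosen after seeing the data, curated transcripts only and first windows only. Python 3.11.15, pandas 2.3.3 and matplotlib 3.10.9 were used.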

Additional observations from a re-analysis of the deposited data

How the results depend on the processing

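No paired analysis was possible because the values used here compare the groups and carry no replicate; leaving out a replicate could not be done for the same reason. With a Q under 0.01 the called members went from 9 to 4 (3 higher and 1 lower), their median log2 fold change from 0.76 to 0.82, the member transcripts from 7 to 3 and the other lipid genes from 10 to 3. At an absolute log2 fold change of 1 or more, 1 member (MSMO1) and 1 other lipid gene (DGAT2) were left. With an absolute log2 fold change under 6, 3 member transcripts were left. The looser motif raised the promoters with an SREBP-type match from 1 to 6, and to 4 with first windows only. These counts fall or rise because fewer or more features pass by construction. A minimum of 0.5 kept all 9 members, leaving out HSD17B7 for shared sequence kept 8 and the median of 0.76, and curated transcripts alone numbered 6. Matching by older symbols gave 10, the addition being FAS, the death receptor gene, whose symbol is an older name of FASN; the gene IDs differ.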
